A study of Mus musculus with 9 samples.

Results

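The 10 genes described here are the regulators and effectors by which a fat cell takes on a brown or beige, heat-producing state, together with the factors that build its mitochondria. They were the PGC-1 coactivators Ppargc1a, Ppargc1b and Pprc1, the nuclear respiratory factors Nrf1 and Gabpa, the mitochondrial transcription factor Tfam, the fate regulator Prdm16, and the brown fat genes Ucp1, Dio2 and Elovl3. The genes were taken by name from the 54532 genes of the deposited tables, and all 10 were found. Poly A RNA of 3T3-L1 cells, an established mouse line of fibroblast-like preadipocytes, was sequenced in 9 libraries. The growth protocol in the labels is the same for all 9, with cells held confluent for 3 days before any differentiation medium. The 3 libraries of the Undifferentiated group came from cells without that medium. The 3 Differentiated libraries came from cells given a medium with 10 μg/mL insulin, 1 μM rosiglitazone, 1 μM dexamethasone and 0.5 mM of the phosphodiesterase inhibitor 3-isobutyl-1-methylxanthine (IBMX). The 3 Lysfree libraries came from cells given the same medium made without lysine. IBMX raises cyclic AMP and rosiglitazone activates PPARγ, and both of these treated groups received them. The labels do not say whether the libraries of a group came from separate cultures. The p-values therefore rest only on the spread between these libraries, which may be technical and which the fit pools over genes.

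In brown and beige adipocytes, adrenergic signals raise cyclic AMP, and the coactivator PGC-1α (Ppargc1a) carries this signal to genes of heat production and of mitochondrial growth. PGC-1 proteins do not bind DNA themselves and act through partners such as NRF1, GABPA and the estrogen-related receptors. NRF1 and GABPA in turn drive Tfam, the factor that packages and transcribes mitochondrial DNA. PRDM16 sets the brown fate, UCP1 uncouples respiration from ATP synthesis, DIO2 activates thyroid hormone inside the cell, and ELOVL3 elongates fatty acids. 3T3-L1 is used mainly as a model of white adipocytes.

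The counts of the 9 libraries summed to between 15880144 and 21806693 per library (median 17784064), so that 3 counts, the level at or below which a gene was treated as not told from 0, stood for 0.138 to 0.189 CPM, that is, counts scaled to the library total. All 10 adipocyte markers were higher in the Differentiated group than in the Undifferentiated group, and their summed level was 6750 to 7091 FPKM (fragments scaled by gene length and library total) in the Differentiated libraries, 287 to 364 in the Undifferentiated and 276 to 391 in the Lysfree libraries. The like sums of the last groups hide differences between markers. In Lysfree vs Undifferentiated, 6 of the 10 were called lower and 2 higher at an edgeR adjusted p under 0.05. The median log2 fold change was -2.65, or -1.22 with genes at the floor set to their bound. Most of the Lysfree sum came from Lpl and Cd36, at means of 188 and 72.7 FPKM, while Adipoq was at 4.18 FPKM against 57.8 in the Undifferentiated group. The 8 preadipocyte and fibroblast markers summed to 3691 to 3953 FPKM in the Undifferentiated libraries, 856 to 861 in the Differentiated and 1415 to 1436 in the Lysfree libraries. Of the 8 skeletal muscle markers, a lineage related to that of brown fat, at least 6 were at 3 counts or fewer in every library of each group, and Myod1, Myf5 and Myf6 were at 0 FPKM in all 3 groups. Of the 6 leukocyte markers, at least 5 were at that floor in each group. The part of these cell type markers in the results below was not tested. In such bulk RNA, fewer cells of a type and less RNA per cell cannot be told apart. Lysfree 1 stood apart from Lysfree 2 and 3. Its counts differed from theirs with a chi-square of 41.9 and 43.0 per degree of freedom, against 2.72 between Lysfree 2 and 3 and 2.92 to 12.2 between the libraries of the other groups. Several of the results below are also given without it, and others that are not can depend on it too. For instance, members called in Lysfree vs Differentiated numbered 6 with Lysfree 1 and 8 without it.

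The 10 genes fell into a set that was well measured in every group and a set at or near 0. Ppargc1a, Ppargc1b, Pprc1, Nrf1, Gabpa and Tfam had at least 10 counts in every library and a mean of at least 1 CPM. Prdm16, Dio2 and Elovl3 never exceeded 22 counts in a library, and Ucp1 had no count in any. The test was edgeR's quasi-likelihood F test on counts, fitted to all genes seen in any of the 6 libraries of a comparison, and a gene was called at a Benjamini-Hochberg adjusted p under 0.05.

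In Differentiated vs Undifferentiated, 6 of the 9 members with any count were called higher and 1 was called lower, where 23.0% of all 24402 genes tested were called higher and 23.2% lower. For Lysfree vs Undifferentiated, 5 of 8 members were called higher, against 18.0% of 23994 genes, and 0 lower by edgeR, against 17.1%. At an unadjusted p under 0.05 the count of members lower was also 0, and DESeq2 gave 0 as well. For Lysfree vs Differentiated, 3 of 9 members were called higher, against 19.7% of 24130 genes, and 3 lower, against 18.8%. Members that were called and also changed at least 2-fold (differentially expressed genes, DEGs) numbered 3, 1 and 4 in these comparisons, where 21.8%, 14.3% and 18.7% of all genes tested were DEGs. The comparisons share groups, so their counts are not independent of each other. All genes tested include many with few counts, for which a call is harder to reach than for the 6 well measured members.

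**Figure D1:**
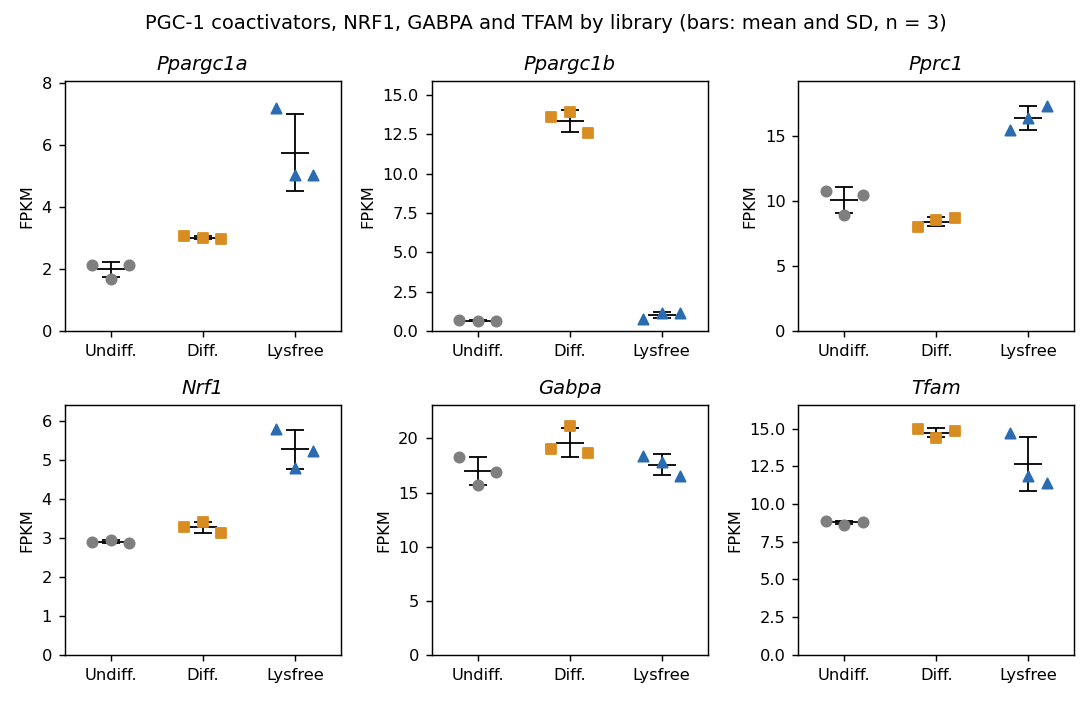
FPKM (vertical axis, from 0) of the 6 well measured genes in the 3 groups, 1 point per library in the order of replicate number from left to right, with the group mean and SD (n = 3). Ppargc1b stood at 12.6 to 13.9 FPKM in the Differentiated libraries and at no more than 1.16 elsewhere, while Ppargc1a, Pprc1 and Nrf1 were highest in the Lysfree libraries.

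The PGC-1 coactivators did not follow a single pattern. Ppargc1b was high only in the Differentiated libraries, Ppargc1a and Pprc1 were highest in the Lysfree libraries, and each of these differences was larger than the spread between libraries. Ppargc1a (ENSMUSG00000029167, mm10 chromosome 5, 51454250 to 51567726, minus strand), the coactivator induced by cold and cyclic AMP in brown fat, was at 2.14, 1.69 and 2.12 FPKM in Undifferentiated 1, 2 and 3. It was at 3.07, 3.01 and 2.96 FPKM in the Differentiated libraries and at 7.18, 5.03 and 5.04 FPKM in the Lysfree libraries. The 3 groups did not overlap, and Lysfree 1 was the highest library of all. Ppargc1a rose by a log2 fold change of 0.58 ± 0.11 (SE) in Differentiated vs Undifferentiated (1.49-fold, edgeR adjusted p = 1.8e-07). In Lysfree vs Undifferentiated it rose by 1.58 ± 0.15 (2.99-fold, edgeR adjusted p = 1.0e-10). In Lysfree vs Differentiated it rose by 1.00 ± 0.14 (1.99-fold, edgeR adjusted p = 3.3e-06), just under the 2-fold threshold. Without Lysfree 1, these last log2 fold changes were 1.37 and 0.79, with edgeR adjusted p of 5.8e-37 and 6.0e-18, so the rise in the Lysfree group was also present in Lysfree 2 and 3 alone.

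Ppargc1b (ENSMUSG00000033871, chromosome 18, 61298136 to 61400431, minus strand) encodes PGC-1β, a coactivator of mitochondrial and lipogenic genes. Its FPKM was 0.73, 0.65 and 0.66 in the Undifferentiated libraries, 13.6, 13.9 and 12.6 in the Differentiated libraries and 0.78, 1.13 and 1.16 in the Lysfree libraries. The Differentiated libraries stood far above all others, and Lysfree 1 was the lowest of the Lysfree libraries. Ppargc1b rose 19.2-fold in Differentiated vs Undifferentiated (log2 fold change 4.26 ± 0.11, edgeR adjusted p = 2.9e-298) and was 12.4-fold lower in Lysfree vs Differentiated (log2 fold change -3.63 ± 0.15, edgeR adjusted p = 3.7e-14). Between the low groups the difference was small. Ppargc1b was called higher in Lysfree vs Undifferentiated by 0.64 ± 0.24 (edgeR adjusted p = 0.033), a call that was lost in 8 of 16 alternative settings. Leaving out Undifferentiated 2, Undifferentiated 3, Lysfree 2 or Lysfree 3 gave edgeR adjusted p of 0.084, 0.11, 0.11 and 0.13, whereas leaving out Lysfree 1 gave 0.0018. DESeq2 gave an adjusted p of 0.060 for the same change.

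Pprc1 (ENSMUSG00000055491, chromosome 19, 46044886 to 46072915, plus strand) encodes PRC, the PGC-1-related coactivator that responds to growth signals. It stood at 10.8, 8.92 and 10.5 FPKM in the Undifferentiated libraries, 8.02, 8.52 and 8.71 in the Differentiated libraries and 15.5, 16.4 and 17.3 in the Lysfree libraries. It was thus lowest in the Differentiated group, where the other PGC-1 genes were above their Undifferentiated level, and highest in the Lysfree group. Pprc1 fell by 0.28 ± 0.07 on the log2 scale in Differentiated vs Undifferentiated (edgeR adjusted p = 5.9e-05), a decrease that limma on log2(FPKM + 1) did not call (adjusted p = 0.054). It rose by 0.75 ± 0.11 in Lysfree vs Undifferentiated (1.68-fold, edgeR adjusted p = 4.1e-07) and by 1.02 ± 0.09 in Lysfree vs Differentiated (2.03-fold, edgeR adjusted p = 1.1e-08). Without Lysfree 1 the latter values were 0.77 and 1.05. Pprc1 shares 329 bases with Ldb1 on the opposite strand, which had 1093 to 5080 counts, and reads of that overlap could belong to either gene because the strand setting of the counting is not given in the sources used here.

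**Figure D2:**
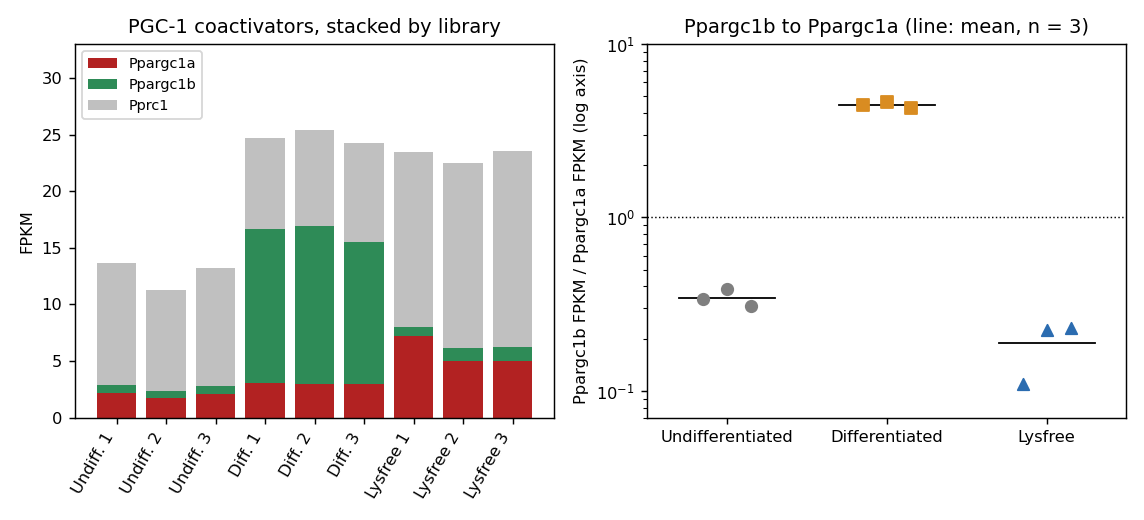
Left, FPKM of Ppargc1a, Ppargc1b and Pprc1 stacked for each of the 9 libraries; right, the Ppargc1b to Ppargc1a ratio of FPKM on a log axis, 1 point per library with the group mean as a line (n = 3) and a dotted line at 1. The summed level was 24.8 FPKM in the Differentiated and 23.2 FPKM in the Lysfree group, while Ppargc1b made up 53.8% of the first and 4.44% of the second.

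The make-up of the coactivators therefore differed between groups with a like summed level. The FPKM of Ppargc1a, Ppargc1b and Pprc1 summed to 12.7 ± 1.28 (SD, n = 3) in the Undifferentiated group, 24.8 ± 0.60 in the Differentiated group and 23.2 ± 0.56 in the Lysfree group. Pprc1 made up 79.1% ± 0.10 of that sum in the Undifferentiated group, 34.0% ± 1.76 in the Differentiated group and 70.8% ± 4.16 in the Lysfree group. Ppargc1a took 15.6% ± 0.49, 12.2% ± 0.31 and 24.8% ± 5.09 in the same order. The ratio of Ppargc1b to Ppargc1a was 0.340, 0.384 and 0.310 in the Undifferentiated libraries, 4.42, 4.63 and 4.25 in the Differentiated libraries and 0.109, 0.225 and 0.231 in the Lysfree libraries. Ppargc1b thus exceeded Ppargc1a in every Differentiated library and in no other, and the ranges of the 3 groups did not overlap. An exact two-sided permutation test of the log2 ratio gave p = 0.1 for each pair of groups, the smallest value that 3 libraries against 3 allow.

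NRF1 and GABPA are DNA-binding partners through which PGC-1 proteins reach the nuclear genes of the respiratory chain. Nrf1 was higher in the Lysfree group than in both other groups, while Gabpa changed by at most 1.14-fold. Nrf1 (ENSMUSG00000058440, chromosome 6, 30047988 to 30153458, plus strand; nuclear respiratory factor 1, not the gene Nfe2l1 that is also called NRF1) was at 2.89, 2.96 and 2.87 FPKM in the Undifferentiated libraries and at 3.28, 3.42 and 3.14 FPKM in the Differentiated libraries. In the Lysfree libraries it was at 5.80, 4.80 and 5.25 FPKM, above every other library. Nrf1 rose by 0.91 ± 0.12 in Lysfree vs Undifferentiated (1.88-fold, edgeR adjusted p = 7.2e-08) and by 0.75 ± 0.11 in Lysfree vs Differentiated (1.68-fold, edgeR adjusted p = 6.5e-06). Without Lysfree 1 it was higher by 0.81 and 0.66. In Differentiated vs Undifferentiated the log2 fold change was 0.15 ± 0.08 (95% interval -0.02 to 0.31, edgeR adjusted p = 0.15), which did not pass the threshold.

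Gabpa (ENSMUSG00000008976, chromosome 16, 84834925 to 84863779, plus strand), the ETS-family subunit of the GA-binding protein, had the highest mean FPKM of the 10 members in each group. It was at 18.3, 15.7 and 16.9 FPKM in the Undifferentiated libraries, 19.0, 21.1 and 18.7 in the Differentiated libraries and 18.4, 17.8 and 16.5 in the Lysfree libraries. The Lysfree and Undifferentiated libraries overlapped, and Differentiated 2 was the highest. Gabpa was called higher in Differentiated vs Undifferentiated by 0.18 ± 0.06 (1.14-fold, edgeR adjusted p = 0.0056), and this call was lost without Differentiated 2 (edgeR adjusted p = 0.14), with all 9 libraries in a single fit (0.12) and with limma. The log2 fold change was 0.10 in Lysfree vs Undifferentiated (95% interval -0.11 to 0.31, edgeR adjusted p = 0.52) and -0.09 in Lysfree vs Differentiated (95% interval -0.29 to 0.10, edgeR adjusted p = 0.48). Without Lysfree 1 the latter was -0.15 and was called (edgeR adjusted p = 0.011). Gabpa shares 701 bases with Atp5j, an ATP synthase gene on the opposite strand with 1917 to 4465 counts, so part of its level could belong to that gene.

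Tfam (ENSMUSG00000003923, chromosome 10, 71225464 to 71238280, minus strand) rose in both groups given the differentiation medium. It was at 8.89, 8.64 and 8.79 FPKM in the Undifferentiated libraries, 14.9, 14.4 and 14.9 in the Differentiated libraries and 14.7, 11.9 and 11.4 in the Lysfree libraries. All 6 treated libraries were above all 3 Undifferentiated libraries, and Lysfree 1 was among the Differentiated libraries while Lysfree 2 and 3 were below them. Tfam rose by 0.72 ± 0.07 in Differentiated vs Undifferentiated (1.65-fold, edgeR adjusted p = 1.3e-22) and by 0.58 ± 0.12 in Lysfree vs Undifferentiated (1.49-fold, edgeR adjusted p = 0.00012). In Lysfree vs Differentiated the log2 fold change was -0.15 ± 0.11 (95% interval -0.38 to 0.07, edgeR adjusted p = 0.29) with Lysfree 1 and -0.29 ± 0.06 (edgeR adjusted p = 2.2e-05) without it, so whether Tfam was lower under lysine deprivation depended on that library.

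**Figure D3:**
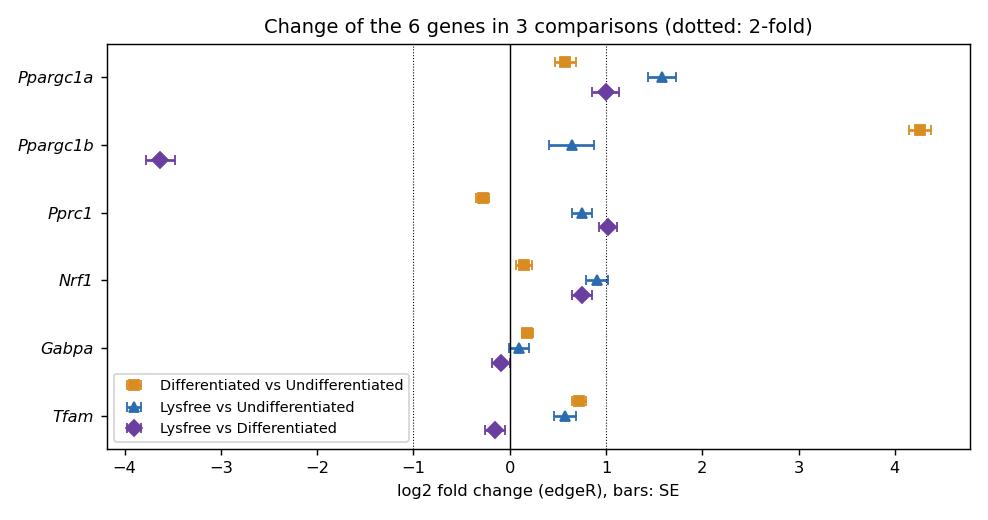
Log2 fold change (horizontal axis, edgeR) with its SE for the 6 well measured genes in the 3 comparisons, with dotted lines at a 2-fold change. Ppargc1b was at 4.26 in Differentiated vs Undifferentiated and at -3.63 in Lysfree vs Differentiated, and Gabpa stayed between -0.09 and 0.18.

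The order of levels per length also differed between groups. Gabpa came first in each group, followed by Pprc1 and Tfam in the Undifferentiated and Lysfree groups and by Tfam and Ppargc1b in the Differentiated group. Ppargc1b was the sixth in the Undifferentiated and Lysfree groups and the third in the Differentiated group, at a mean of 0.68, 1.03 and 13.3 FPKM. Among the 6 well measured genes, the neighbours in this order whose libraries overlapped were Gabpa and Pprc1 in the Lysfree group and Ppargc1a and Nrf1 in the same group, so these pairs could not be ranked.

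Ucp1, Prdm16, Dio2 and Elovl3, the genes that define the brown or beige state most directly, were at or close to 0 counts. Ucp1 (ENSMUSG00000031710, chromosome 8, 83290352 to 83298452, plus strand), the uncoupling protein of brown fat, had 0 of 163327605 counts in the 9 libraries together. The limit that a count of 0 allows, 3 counts in a library, stands for at most 0.189 CPM, and a level below that was not detectable at this depth. Prdm16 (ENSMUSG00000039410, chromosome 4, 154316125 to 154636873, minus strand) had 2, 9 and 1 counts in Differentiated 1, 2 and 3 and 0 in every other library. Only Differentiated 2 exceeded 3 counts. Against that floor, Prdm16 was at least 1.39-fold higher in Differentiated vs Undifferentiated (edgeR adjusted p = 0.0086) and at least 1.27-fold lower in Lysfree vs Differentiated (edgeR adjusted p = 0.026). Both calls were lost without Differentiated 2, with edgeR adjusted p of 0.19 and 0.23, and rest on that library.

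**Figure D4:**
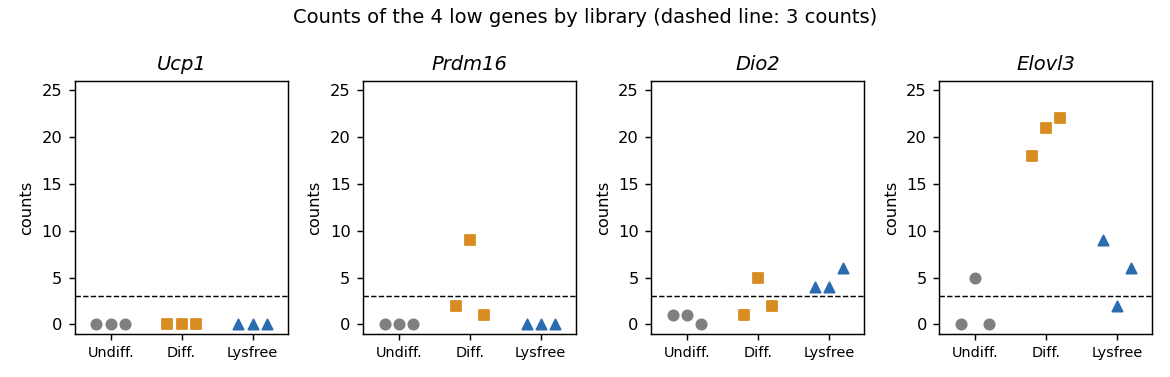
Counts (vertical axis) of Ucp1, Prdm16, Dio2 and Elovl3 in each library, 1 point per library in the order of replicate number, with a dashed line at 3 counts. Elovl3 had 18 to 22 counts in the Differentiated libraries and at most 9 elsewhere, and Ucp1 had 0 in all 9.

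Dio2 (ENSMUSG00000007682, chromosome 12, 90724552 to 90738438, minus strand) had 1, 1 and 0 counts in the Undifferentiated libraries, 1, 5 and 2 in the Differentiated libraries and 4, 4 and 6 in the Lysfree libraries. The Lysfree libraries were the ones that all exceeded 3 counts, but no comparison was called by edgeR. The ratio of pooled counts, scaled to the library totals, was 7.81 in Lysfree vs Undifferentiated, with an exact 95% interval of 1.79 to 70.8 that covers counting error only (edgeR adjusted p = 0.069). It was 4.52 (0.90 to 43.7) in Differentiated vs Undifferentiated and 1.73 (0.68 to 4.75) in Lysfree vs Differentiated, with edgeR adjusted p of 0.26 and 0.51. Limma on log2(FPKM + 0.1) called the first of these (adjusted p = 0.044).

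Elovl3 (ENSMUSG00000038754, chromosome 19, 46131897 to 46135307, plus strand), a fatty acid elongase that is strongly induced in brown fat by cold, was the effector with the clearest signal. It had 0, 5 and 0 counts in the Undifferentiated libraries, 18, 21 and 22 in the Differentiated libraries and 9, 2 and 6 in the Lysfree libraries. The Differentiated libraries stood above all others, at a mean of 0.82 FPKM against 0.051 in the Undifferentiated and 0.21 in the Lysfree group. The pooled ratio was 13.8 in Differentiated vs Undifferentiated (exact 95% interval 5.60 to 44.0, edgeR adjusted p = 6.4e-09) and 0.275 in Lysfree vs Differentiated (0.151 to 0.477, edgeR adjusted p = 0.0026). In Lysfree vs Undifferentiated it was 3.80 (1.34 to 13.2) and was not called (edgeR adjusted p = 0.19). The result of Lysfree vs Undifferentiated depended on Undifferentiated 2, which held all 5 counts of its group, and without it the edgeR adjusted p was 0.018. The size of the rise in Differentiated vs Undifferentiated rested on the same 5 counts. Without Undifferentiated 2 the group was at 0, and Elovl3 was at least 7.11-fold higher against the floor of 3 counts per library (edgeR adjusted p = 9.7e-11). Without Undifferentiated 1 the ratio of mean CPM was 10.3 (edgeR adjusted p = 1.5e-06), as it was without Undifferentiated 3 (edgeR adjusted p = 3.4e-06). Elovl3 lies 58.982 kb from Pprc1 on chromosome 19, and these neighbours moved in opposite directions in Differentiated vs Undifferentiated and in Lysfree vs Differentiated.

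The starts of 8 of the 10 genes were held in the RefSeq promoter table (GRCm38.p6), which gives 250 bases before and 50 bases after a start site, in 9 windows. Ppargc1b and Elovl3 were not among them. Each window was searched on both strands for GCGCANGCG, a motif of NRF1 that was in 6.25% of all 32851 windows, for CCGGAAG, a motif of GABPA and other ETS factors (8.86%), and for the CREB motifs TGACGTCA (1.79%) and TGACG (20.8%), of which the longer contains the shorter on both strands. The NRF1 motif was in no window of these genes. CCGGAAG was in the windows of Tfam at position -47 and of Gabpa at position -93, on the opposite strand. TGACGTCA was in the window of Dio2 at position -95. TGACG alone was in those of Ppargc1a at position -49, on the opposite strand, and of Ucp1 at position -147. Such a match is a description of the letters and not evidence of a bound site. Shown are Ppargc1a, highest in the Lysfree libraries, Tfam, higher in both treated groups, and Dio2, which holds the longest cyclic AMP motif and stood at 6 counts or fewer. Capitals mark the motif, and each is given 5′ to 3′ along its gene, at chr5:51567676-51567975, chr10:71237995-71238294 and chr12:90738989-90739288, all on the minus strand. The RefSeq start of Tfam lies 236 bases downstream, and that of Dio2 600 bases upstream, of the gene start in the deposited tables.
Ppargc1a: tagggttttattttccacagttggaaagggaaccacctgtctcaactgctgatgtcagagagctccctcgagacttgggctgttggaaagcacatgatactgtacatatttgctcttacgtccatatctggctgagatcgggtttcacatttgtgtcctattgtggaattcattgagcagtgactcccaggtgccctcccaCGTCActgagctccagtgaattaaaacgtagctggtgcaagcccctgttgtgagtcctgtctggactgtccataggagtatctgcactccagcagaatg
Tfam: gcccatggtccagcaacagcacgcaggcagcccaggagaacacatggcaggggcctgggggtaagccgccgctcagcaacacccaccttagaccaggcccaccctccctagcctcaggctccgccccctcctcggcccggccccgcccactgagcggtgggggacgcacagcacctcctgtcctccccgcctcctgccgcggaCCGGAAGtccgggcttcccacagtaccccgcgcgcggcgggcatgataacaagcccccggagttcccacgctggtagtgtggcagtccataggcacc
Dio2: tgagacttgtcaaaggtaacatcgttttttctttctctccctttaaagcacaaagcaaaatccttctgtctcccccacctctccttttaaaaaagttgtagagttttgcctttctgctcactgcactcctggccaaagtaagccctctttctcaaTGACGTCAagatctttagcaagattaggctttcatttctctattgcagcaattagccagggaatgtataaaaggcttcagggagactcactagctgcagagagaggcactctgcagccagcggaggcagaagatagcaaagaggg
The windows of Tfam and Dio2 were unlike in base content, with 70.3% and 44.7% G or C against a median of 52.7% over all windows, and that of Ppargc1a had 48.7%.

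The genes whose level followed each well measured member most closely over the 9 libraries were looked up among 14195 expressed genes, by Pearson correlation of log2(CPM + 1). This is a description over libraries that share 3 conditions, and it carries no p. For Ppargc1a they were Atf6, Dhx36 and Xpo5 (r = 0.998, 0.998 and 0.996). Atf6, a sensor of unfolded proteins in the endoplasmic reticulum, was at a mean of 7.04, 10.1 and 17.0 FPKM in the Undifferentiated, Differentiated and Lysfree groups. For Ppargc1b they included Hmgb3 and Ppp2r5a (r = 0.999 for each). For Pprc1 they were Zmiz1, Kdelc1 and Cyp26b1 (r = 0.995, 0.992 and 0.992), and for Nrf1 Layn, Dyrk1a and Atp6v1a (r = 0.995, 0.992 and 0.992). Tfam was closest to Papola, Cab39 and Nipa2 (r = 0.997, 0.996 and 0.996). Gabpa had no like partner, since its 3 closest genes, Smg1, Cep192 and Zc3h7a, reached r = 0.888, 0.887 and 0.884.

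Around these factors stood the 23 listed partners in mitochondrial biogenesis, among which more genes were called higher than lower in both groups given the differentiation medium. The counts of this and the following lists are to be read against the shares of all genes called higher and lower, which were 23.0% and 23.2% in Differentiated vs Undifferentiated, 18.0% and 17.1% in Lysfree vs Undifferentiated and 19.7% and 18.8% in Lysfree vs Differentiated. These shares include many genes with few counts, which are harder to call. Over the 9 libraries, 14195 genes passed an expression filter, and the shares among those were not computed. A list of well expressed genes can therefore exceed the shares of all genes without being particular. In Differentiated vs Undifferentiated, 12 of 23 were called higher and 3 lower, with a median log2 fold change of 0.21 against 0.02 over all genes tested. Between Lysfree and Undifferentiated, 14 were called higher and 2 lower (median 0.39, all genes -0.02). Myc, a driver of growth and ribosome synthesis, rose alike in both, from 11.2 ± 0.40 FPKM (SD, n = 3) in the Undifferentiated group to 63.9 ± 1.85 in the Differentiated and 61.5 ± 4.12 in the Lysfree group. Tefm, the mitochondrial transcription elongation factor, was at 4.29 ± 0.59 FPKM in the Undifferentiated group and 14.1 ± 1.68 in the Differentiated group (log2 fold change 1.69 ± 0.12, edgeR adjusted p = 9.6e-46). Perm1, a regulator induced by PGC-1 proteins in muscle, was low and fell in Lysfree vs Undifferentiated (from 0.46 to 0.19 FPKM, log2 fold change -1.20, edgeR adjusted p = 0.0067). It was also low, at 0.25 FPKM, in the Differentiated group. Between Lysfree and Differentiated, 9 partners were called higher and 6 lower (median 0.01, all genes -0.06). Among partners with a mean of at least 1 CPM, the largest falls were those of Esrra and Mterf2. Esrra, an estrogen-related receptor that PGC-1 proteins coactivate, fell from 44.6 ± 1.79 to 14.8 ± 4.88 FPKM (log2 fold change -1.52, edgeR adjusted p = 1.5e-07). Mterf2, a mitochondrial transcription terminator family member, fell from 5.34 ± 0.53 to 1.73 ± 0.22 FPKM (log2 fold change -1.55, edgeR adjusted p = 6.1e-07). In the Undifferentiated group they were at 17.3 ± 1.77 and 3.38 ± 0.18 FPKM. Esrrg, another estrogen-related receptor, went the other way at low counts. It had 9 to 19 counts in the Lysfree libraries, at most 1 in the Differentiated and at most 2 in the Undifferentiated. With limma on log2(FPKM + 1) the counts of partners called higher were 8 in Lysfree vs Undifferentiated and 5 in Lysfree vs Differentiated.

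The genes that copy and maintain mitochondrial DNA were called mostly higher in Differentiated vs Undifferentiated (12 of 21 higher, 5 lower, median 0.36). In Lysfree vs Undifferentiated 6 were called in each direction (median 0.10), and in Lysfree vs Differentiated 10 were called lower, 3 higher and 8 not at all (median -0.31). Slc25a33, a mitochondrial carrier of pyrimidine nucleotides, was at 6.65 ± 0.96 FPKM in the Undifferentiated group, 25.0 ± 0.64 in the Differentiated group and 13.6 ± 0.77 in the Lysfree group. Rrm2b, a subunit of ribonucleotide reductase induced by p53, was at 1.97 ± 0.20, 2.57 and 4.70 ± 1.02 FPKM and was called higher in Lysfree vs Undifferentiated (log2 fold change 1.30, edgeR adjusted p = 2.6e-09). Pink1, a kinase of mitochondrial quality control, fell from 25.6 ± 2.17 FPKM in the Undifferentiated group to 11.7 ± 0.90 and 9.60 ± 2.33 FPKM. Dna2, a nuclease and helicase, rose to 0.95 FPKM in the Differentiated group and was at 0.28 and 0.36 FPKM in the Undifferentiated and Lysfree groups.

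**Figure D5:**
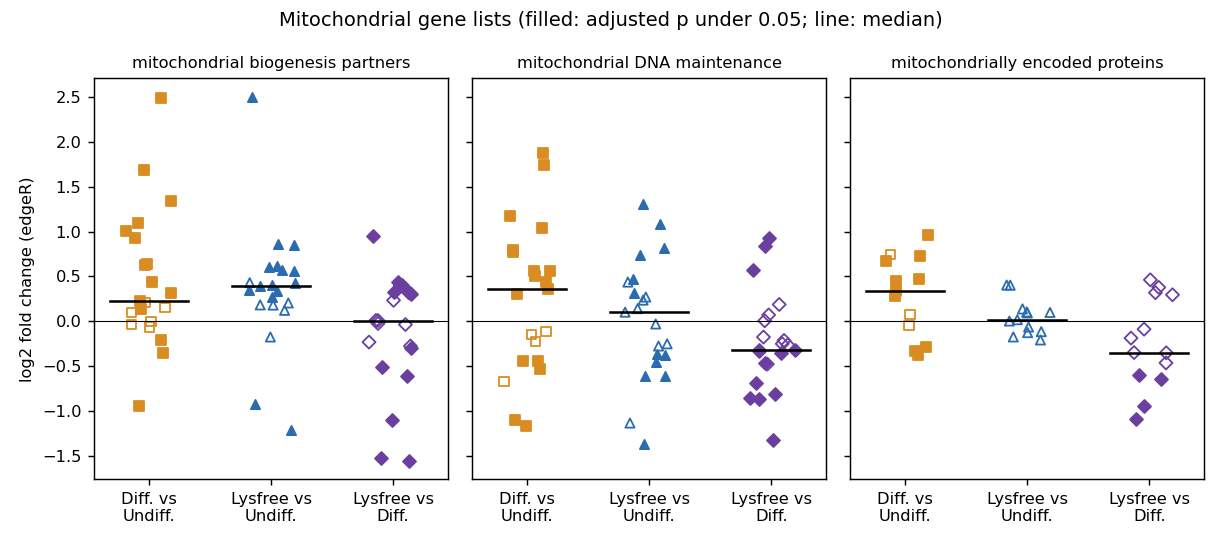
Log2 fold change (edgeR) of each gene of 3 mitochondrial lists in the 3 comparisons, filled where the adjusted p was under 0.05 and open otherwise, with the median of the points as a line; 2 of the 23 biogenesis partners that were at 3 counts or fewer in a whole group are left out. Biogenesis partners lay mostly above 0 in both comparisons with the Undifferentiated group, and DNA maintenance genes mostly below 0 in Lysfree vs Differentiated.

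The 13 proteins encoded by mitochondrial DNA itself, which TFAM helps to transcribe, gave results in the Lysfree group that depended on a single library. Against the Differentiated group they also depended on the fit. Their share of all counts was 1.01%, 1.02% and 1.07% in the Undifferentiated libraries, 1.26%, 1.17% and 1.19% in the Differentiated libraries and 1.53%, 0.83% and 0.85% in the Lysfree libraries. Lysfree 1 was thus the highest of the 9 and Lysfree 2 and 3 the lowest. In Differentiated vs Undifferentiated, 7 of 13 were called higher and 3 lower (median 0.34). The largest rise was that of mt-Nd1, a complex I subunit, from 1461 to 2887 FPKM (log2 fold change 0.96, edgeR adjusted p = 1.6e-105). In Lysfree vs Undifferentiated, 0 were called by edgeR in either direction, with 0 at an unadjusted p under 0.05 and 0 by DESeq2, but 8 were called lower without Lysfree 1 (median -0.39). Leaving out Lysfree 2 or Lysfree 3 instead gave 3 and 2 called higher. In Lysfree vs Differentiated, 4 were called lower (median -0.35) and 10 without Lysfree 1 (median -0.48). Without Lysfree 2 or Lysfree 3, 3 were called higher in that comparison, and without Differentiated 2 or Lysfree 3 the number called lower was 2. With all 9 libraries in a single fit, 3 were called higher and 7 lower there. In this last comparison mt-Nd1 was at 1741, 1062 and 1124 FPKM in the Lysfree libraries, below every Differentiated library (log2 fold change -1.08, edgeR adjusted p = 2.8e-07). Poly A selection and nuclear copies of mitochondrial sequence affect such counts, and their part was not tested.

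Among the 25 listed brown and beige markers that are not members, more were called lower than higher in Lysfree vs Differentiated. Of these genes, 8 had at most 3 counts in every library, among them Zic1 with none at all. In Differentiated vs Undifferentiated, 8 of 24 were called higher and 4 lower (median 0.61). That median was 0.84 without 7 genes at the floor in both groups and with 3 at the floor in 1 group at their bound. Fgf21, a hormone induced by stress and by PPAR signalling, was at 1.00 ± 0.09 FPKM in the Undifferentiated group, 20.4 in the Differentiated and 2.94 ± 0.38 in the Lysfree group. It was the only one called higher in Lysfree vs Undifferentiated (log2 fold change 1.58, edgeR adjusted p = 5.5e-05), where 6 of 22 were called lower (median -1.30). That median was -0.63 without 6 genes at the floor in both groups and with 5 at their bound. Eva1b, a gene of the list whose link to brown fat is not shown here, is among the 6 called lower in that comparison (log2 fold change -1.36, edgeR adjusted p = 5.2e-08). Its level was 38.3 ± 4.49 FPKM in the Undifferentiated, 19.8 ± 1.03 in the Differentiated and 14.4 ± 5.50 in the Lysfree group. Clstn3, which has an adipocyte form in brown fat, was at 0.29 ± 0.09 FPKM in the Undifferentiated and 7.27 ± 0.46 FPKM in the Differentiated group (log2 fold change 4.57 ± 0.14, edgeR adjusted p = 3.5e-237). In Lysfree vs Differentiated, 1 of 20 tested was called higher and 9 lower, and 10 were not called (median -1.97). That median was -2.73 without 5 genes at the floor in both groups and with 4 at their bound. Ffar4, a fatty acid receptor, and Slc36a2, an amino acid transporter that marks brown fat, had 0 counts in the Lysfree libraries and were at least 45.8-fold and at least 14.3-fold lower there than in the Differentiated group. The counts of markers called lower in Differentiated vs Undifferentiated and in Lysfree vs Undifferentiated were 2 and 3 with edgeR's expression filter, and the first was also 2 without Differentiated 1.

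Genes of cycles that burn energy without UCP1 were led by those of lipid turnover. In Differentiated vs Undifferentiated, 7 of 13 tested genes of creatine, calcium and lipid cycling were called higher and 2 lower (median 0.39, or 2.46 without the 3 genes at the floor in both groups). Pnpla2 and Lipe, the lipases that release fatty acids, rose from 24.7 ± 3.84 to 474 ± 3.90 FPKM and from 8.42 ± 0.83 to 149 ± 0.65 FPKM. In the Lysfree group they were at 27.9 ± 1.69 and 4.35 ± 0.95 FPKM (log2 fold change -4.02 and -5.03 in Lysfree vs Differentiated). Slc6a8, the creatine transporter, fell in Differentiated vs Undifferentiated from 32.1 ± 1.76 to 9.23 ± 0.40 FPKM (log2 fold change -1.83, edgeR adjusted p = 2.7e-185) and was at 35.7 ± 1.61 FPKM in the Lysfree group. The counts were 3 higher and 4 lower in Lysfree vs Undifferentiated, and leaving out Lysfree 1 or Undifferentiated 2 gave 5 called higher. Gamt, which makes creatine, fell from 8.94 ± 0.86 to 1.19 ± 0.22 FPKM in that comparison (log2 fold change -2.85, edgeR adjusted p = 3.3e-13). For Lysfree vs Differentiated, 1 of 11 was called higher and 7 lower (median -2.77). That median was -2.18 without 1 gene at the floor in both groups and with 1 gene at its bound.

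The transcription factors and corepressors of the brown fate were called in both directions. Of 32, 18 were called higher and 11 lower in Differentiated vs Undifferentiated (median 0.56). Between Lysfree and Undifferentiated, 7 of 31 were called higher and 11 lower (median -0.08), with 4 called higher when Undifferentiated 2 or Undifferentiated 3 was left out and 2 with limma. Between Lysfree and Differentiated, 6 of 32 were called higher and 16 lower (median -0.29). Zfp521, a repressor of adipogenesis, was at 15.5 ± 0.20 FPKM in the Undifferentiated group, 1.22 ± 0.16 in the Differentiated and 10.7 ± 0.83 in the Lysfree group. Cebpa and Pparg, the central regulators of adipogenesis, were at 8.23 ± 1.85 and 8.47 ± 1.72 FPKM in the Lysfree group against 164 ± 7.07 and 51.9 ± 2.02 FPKM in the Differentiated group (log2 fold change -4.25 and -2.55). In the Undifferentiated group they were at 22.9 ± 2.76 and 13.7 ± 1.21 FPKM. Foxc2, a forkhead factor that raises cyclic AMP sensitivity in fat, rose in Lysfree vs Undifferentiated from 2.49 ± 0.66 to 6.13 ± 1.65 FPKM (log2 fold change 1.34, edgeR adjusted p = 7.5e-07). Ebf3, an early B cell factor, fell in the same comparison from 6.86 ± 0.18 to 2.23 ± 0.33 FPKM (log2 fold change -1.57, edgeR adjusted p = 2.0e-12). In the Differentiated group Foxc2 and Ebf3 were at 3.79 ± 0.46 and 2.85 ± 0.15 FPKM, so Ebf3 was low in both groups given the differentiation medium.

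Of 27 genes for signals upstream of PGC-1 and UCP1, 11 were called higher (40.7%) and 10 lower (37.0%) in Differentiated vs Undifferentiated (median 0.003), where 23.0% and 23.2% of all genes, those with few counts included, were. The 6 called higher and 6 lower in Lysfree vs Undifferentiated (22.2% each, median -0.05) lay near the 18.0% and 17.1% of all genes. In Lysfree vs Differentiated 7 of 26 were called higher (26.9%) and 10 lower (38.5%), against 19.7% and 18.8% of all genes (median -0.03). Adrb3, the adrenergic receptor of fat, had 0 counts in the Lysfree libraries and was at least 14.9-fold lower there than in the Differentiated group, where it was at 0.78 ± 0.09 FPKM. In the Undifferentiated group it was at 0.36 ± 0.18 FPKM. Map2k6, a kinase that activates p38, was at 1.62 ± 0.13, 1.21 ± 0.07 and 0.21 ± 0.05 FPKM in the Undifferentiated, Differentiated and Lysfree groups. Ncoa3, a coactivator that promotes the acetylation of PGC-1α, and Crtc3, a coactivator of CREB, were lower in the Differentiated group (3.12 ± 0.28 and 1.83 ± 0.09 FPKM) than in the Lysfree group (9.59 ± 0.44 and 4.11 ± 0.08 FPKM), with log2 fold changes of 1.68 and 1.24 in Lysfree vs Differentiated. They were also lower there than in the Undifferentiated group, which was at 7.84 ± 0.43 and 4.30 ± 0.11 FPKM. Crem, a cyclic AMP responsive factor, rose from 0.48 ± 0.20 to 1.10 ± 0.10 FPKM in Lysfree vs Undifferentiated (log2 fold change 1.22, edgeR adjusted p = 9.5e-05). It was at a like level, 1.00 ± 0.09 FPKM, in the Differentiated group, so this rise was not particular to the Lysfree group.

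Some relatives of the members were well measured, while others, such as Elovl2 and Prdm1, had 0 counts in every library. Ucp2, a relative of Ucp1 found in many tissues, was at 16.4 ± 0.80 FPKM in the Undifferentiated group, 63.6 ± 0.38 in the Differentiated and 17.1 ± 1.38 in the Lysfree group (log2 fold change 1.93 in Differentiated vs Undifferentiated and -1.83 in Lysfree vs Differentiated). Ucp3, the muscle and brown fat form, was low and followed the same order at 0.054, 0.79 and 0.066 FPKM. Slc25a30, a further mitochondrial carrier of that family, went the other way, at 5.30, 3.23 ± 0.22 and 9.11 ± 1.41 FPKM. Dio1 and Dio3, the other deiodinases, had 0 counts in every library. Among the other Elovl and Prdm genes, 4 of 13 were called higher and 6 lower in Differentiated vs Undifferentiated, 5 and 4 of 14 in Lysfree vs Undifferentiated, and 4 and 3 of 14 in Lysfree vs Differentiated. Elovl4, an elongase of very long fatty acids, was at 0.42, 0.061 ± 0.025 and 0.68 ± 0.12 FPKM and was called higher in Lysfree vs Differentiated (log2 fold change 3.52, edgeR adjusted p = 9.5e-07). Mecom, the Prdm gene nearest to Prdm16 in the family, was at 1.93 ± 0.27, 0.79 ± 0.08 and 1.78 ± 0.20 FPKM, lowest in the Differentiated group.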

How the data were processed

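Libraries of poly A RNA from 3T3-L1 cells, 9 in all, were sequenced as paired-end reads, 3 per group. Groups were taken from the sample titles. Per the submitters' processing notes, the authors mapped the reads to mm10 with HISAT2 2.0.5 and counted them per gene with featureCounts 1.5.0-p3. The annotation release and strand setting are not given in the sources used here. The deposited count table holds raw whole counts of 54532 genes. The deposited FPKM table equals count over gene length and library total times a constant of 0.932 to 1.04 per library. Levels are given in FPKM, which can be compared between genes, and tests used the counts.

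Each pair of groups was fitted separately with edgeR 4.0.16 (glmQLFit, glmQLFTest, TMM normalization) in R 4.3.3, over the genes counted at least once in its 6 libraries. P-values were adjusted over all of them by the Benjamini-Hochberg procedure, and the threshold was 0.05. DEGs also changed at least 2-fold. The fit draws the spread of each gene toward that of genes of like level, by a weight called the prior degrees of freedom. This weight was 28.0 in Lysfree vs Undifferentiated and 15.9 in Lysfree vs Differentiated. It was infinite in Differentiated vs Undifferentiated, so p-values there do not measure the spread of the single gene. The SE was the size of the log2 fold change over the square root of F. Depth, 15880144 to 21806693 counts per library, set a floor of 3 counts. A fold against a group whose libraries were all at 0 was computed against that floor per library as a lower bound. In medians with genes at their bound, the same was done for any group at 3 counts or fewer in every library. Genes so low in both groups were left out of those medians. Genes with few counts have exact binomial intervals at 95%. These cover counting error only. With 3 libraries against 3, an exact permutation test cannot go below p = 0.1.

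The members and the gene lists were chosen with earlier results of these data known. Besides the members, the genes named were up to 2 largest rises and 2 largest falls of each list and comparison among DEGs whose mean reached 1 CPM, with no overlap between groups, any gene of a list of 13 or fewer, and the 3 genes most correlated with each well measured member, of which 1 is not reported here. Zic1, Esrrg beside Esrra, Pparg in the comparison of the brown fate list, and markers of cell types are named beside their counts. Alternatives were DESeq2 1.42.0, median-of-ratios size factors, library sizes alone, a minimum of 10 counts in every library, filterByExpr, no filter, all 9 libraries in a single fit, a replicate block, limma 3.58.1 on log2(FPKM + 1) and log2(FPKM + 0.1), and each library left out in turn. The scripts were tested on simulated data. Tables were handled with Python 3.11.15 and pandas 2.3.3.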

Additional observations from a re-analysis of the deposited data

How the results depend on the processing

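Of the changes of single members, 376 kept their direction and their side of the threshold over the alternatives, 22 were no longer called, 4 became called and 0 reversed. The losses were those of Ppargc1b in Lysfree vs Undifferentiated, Prdm16 in both comparisons with the Differentiated group, and Gabpa and Pprc1 in Differentiated vs Undifferentiated. DEGs numbered 5329, 3426 and 4507 in Differentiated vs Undifferentiated and in the comparisons of Lysfree with Undifferentiated and with Differentiated. They numbered 3488, 2244 and 2891 with at least 10 counts in every library, where fewer genes are tested, and 2726, 1474 and 2198 with limma on log2(FPKM + 1), whose pseudocount understates changes of low genes. With the latter, 4 members were called in Differentiated vs Undifferentiated, against 7. With 1 library left out, members called were 5 to 7, 4 to 5 and 5 to 8, and genes called were 10531 to 11009, 6781 to 9561 and 7851 to 10708, against 11260, 8428 and 9280 with all libraries. The deviations of same-numbered libraries from their group means correlated at r from -0.160 to 0.189, and those of differently numbered libraries at r from -0.231 to 0.186. With 3 libraries per group, this check cannot settle whether the numbers pair the libraries. With the replicate block, 10578, 8319 and 8772 genes, 4837, 3179 and 4173 DEGs and 6, 5 and 5 members were called. Depth limits Ucp1, Prdm16, Dio2 and Elovl3, which had at most 22 counts in a library.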
